A study of Mus musculus with 47 samples.

Results

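The type I interferon response genes are 44 genes that cells switch on when an interferon of the alpha or beta kind reaches its receptor. They were picked by symbol from a deposited RNA-seq table of mouse reprogramming cells, and all 44 were found among its 22632 genes. The values are RPKM (reads in a gene, corrected for its length and for the size of the library) in 47 bulk libraries. Secondary embryonic fibroblasts had been given doxycycline to reprogram them, and 4 clones titled SC and 4 titled SI were followed. The labels do not spell out either name. Both classes were sampled at d14 and d21, with 14 and 21 days of doxycycline, at d22 and d23, with 21 days of the drug and then 1 or 2 days without it, and at d27, with 27 days of the drug. These days are each sample's own fields. The shared treatment note instead counts d22 and d23 as further days with the drug. SC iPS libraries came from the 4 SC clones after 21 days with and 6 days without doxycycline. The 3 feeder libraries came from mouse embryonic fibroblasts that had none. Every clone group held n = 4 libraries, 1 per clone, so each clone is followed through time, and a p-value speaks of the spread among these 4 clones alone. The labels give neither strain, nor the reprogramming factors and the promoter behind them, nor how the feeders were prepared, nor whether the clones were grown on feeders.

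Interferons bind a receptor whose Janus kinases phosphorylate STAT2, which joins IRF9 and binds an interferon-stimulated response element, a short GAAA repeat near the start of the responding genes. The products detect viral RNA, degrade it, block its translation or entry, and feed back on the signal itself. Pluripotent mouse cells are known to make little interferon and to answer it weakly, whereas fibroblasts answer it strongly. A few members, Irf1 and the guanylate-binding proteins Gbp2 and Gbp3 among them, are known to answer interferon gamma, a type II interferon, as well.

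The response element is shown first for members whose values carry the results below. RefSeq promoter windows (build GRCm38.p6, 250 bases before to 50 after the annotated start) were matched by symbol for 34 of the 44 members. The core of the element, GAAA and GAAA with any 2 bases between them, read on both strands with overlaps allowed, was in the window of 16 of those 34 members, against 3.993% of all 27025 genes with a window. In the following lines the stretch around each match is shown from 5′ to 3′ on the gene's own strand, with the letters of the match in capitals, and these read TTTC and TTTC where the match lies on the opposite strand. The stretch of Isg15, with 3 overlapping copies, is chr4:156200855-156200916 (minus strand), that of Ifit1 chr19:34640765-34640833 (plus strand), that of Ifit3 chr19:34583353-34583436 (plus strand), that of Rsad2 chr12:26456543-26456592 (minus strand), that of Stat2 chr10:128270256-128270305 (plus strand), that of Cxcl10 chr5:92349073-92349122 (minus strand) and that of Gbp2 chr3:142620584-142620633 (plus strand).
Isg15: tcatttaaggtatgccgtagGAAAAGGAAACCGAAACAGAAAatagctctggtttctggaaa
Ifit1: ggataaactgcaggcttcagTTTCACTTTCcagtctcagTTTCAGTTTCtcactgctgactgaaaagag
Ifit3: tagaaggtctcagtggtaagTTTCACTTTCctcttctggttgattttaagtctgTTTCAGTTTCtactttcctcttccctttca
Rsad2: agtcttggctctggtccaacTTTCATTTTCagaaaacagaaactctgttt
Stat2: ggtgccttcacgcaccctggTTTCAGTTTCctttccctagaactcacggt
Cxcl10: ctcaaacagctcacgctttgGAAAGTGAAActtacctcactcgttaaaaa
Gbp2: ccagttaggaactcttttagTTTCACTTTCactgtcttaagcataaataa

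Irf1 is set beside them because its values run apart from theirs. Its windows held no copy of that core, but 1 held TTCNNNGAA, the pattern that STAT dimers are known to bind, at chr11:53769904-53769952 (plus strand). That pattern was in the windows of 9 of the 34 members and of 9.554% of all genes with a window, and is the more common of the pair across genes. Irf7, Irf9, Oasl2 and Samd9l also had windows without the GAAA core, while Gbp2, shown above with it, shared its highest group, SC d23, with Irf1. A match is only a run of letters in the window, and no link between matches and values was tested.
Irf1: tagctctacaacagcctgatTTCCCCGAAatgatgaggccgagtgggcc

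The sum of RPKM per library ran from 189172.4 to 245694.8. No read totals were given, but the steps between low values of short genes, each the worth of 1 read, implied 26.8 to 122.6 megareads in 43 libraries (median 68.7), or a whole multiple of that. A single read in a gene of 1 kb is then worth 0.0082 to 0.0373 RPKM. The labels held against 12 pluripotency markers, whose mean log2(RPKM + 1) was 6.13 ± 0.32 in iPS cells and 0.05 ± 0.02 in feeders, and against 20 fibroblast markers, at 4.70 ± 0.61 in iPS cells and 7.19 ± 0.03 in feeders. Feeders also carried macrophage transcripts, with Lyz2 at a mean of 157 RPKM and C1qa at 16.5 RPKM, so they were not free of other cells' markers. Of 18 macrophage and leukocyte markers, none was at 0 in all libraries of any group.

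Across the 12 groups the interferon response genes were highest in feeders and d14 clones, lowest in SI d21 and SC d22 clones, and intermediate in iPS cells. The mean log2(RPKM + 1) over all 44 members was 3.54, 3.32, 3.32 and 3.64 in SC1 to SC4 at d14, 2.35, 1.97, 2.39 and 2.26 at d21, 1.97, 2.08, 2.21 and 2.13 at d22, 2.03, 3.32, 2.24 and 1.95 at d23, 2.20, 1.65, 2.02 and 2.98 at d27 and 2.89, 2.73, 3.18 and 2.95 in iPS cells. In SI1 to SI4 it was 2.62, 3.42, 4.30 and 2.80 at d14, 1.78, 2.09, 2.35 and 1.87 at d21, 2.36, 2.19, 2.77 and 2.24 at d22, 3.13, 3.01, 2.06 and 2.99 at d23 and 2.48, 2.07, 2.31 and 2.49 at d27. Feeders stood at 3.65, 3.65 and 3.69. Single libraries departed far from their groups. SI3 at d14 was above the feeders, SC2 at d23 and SC4 at d27 were above the other SC clones, and SI3 at d23 was below the other SI clones. These 4 libraries recur in the comparisons, and several results that rest on them are also given without the library or its clone.

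**Figure D1:**
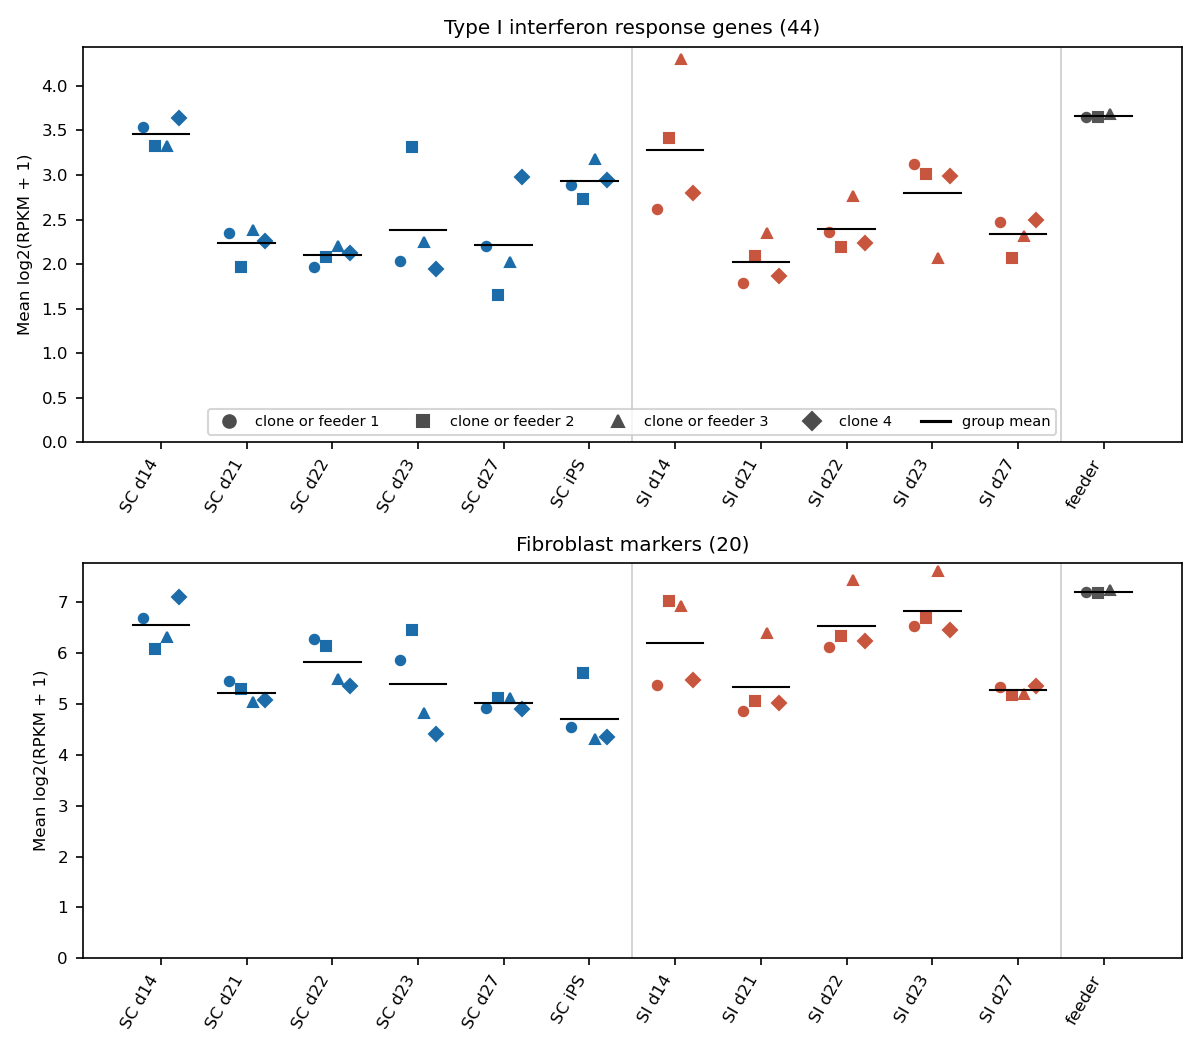
Mean log2(RPKM + 1) of the 44 interferon response genes (top) and of 20 fibroblast markers (bottom) in each of 47 libraries, by group, with symbols for clone or feeder number and a line at the group mean. Members run between 2.62 and 4.30 at d14 and between 1.78 and 2.39 at d21, while SI3 at d23 has the highest fibroblast level of all libraries (7.60) and a member level of 2.06.

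For 27 of the 44 members the highest group mean of log2(RPKM + 1) was that of the feeders, and for 36 it was that of the feeders or of a d14 group. SC d22 was the lowest group for 21 members and SI d21 for 11. The 8 members with another top group were Irf1, Gbp2 and Oas3, highest in SC d23, Isg20, highest in SI d23, Trim25, Parp9 and Dtx3l, highest in iPS cells, and Parp12, highest in SI d21.

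**Figure D2:**
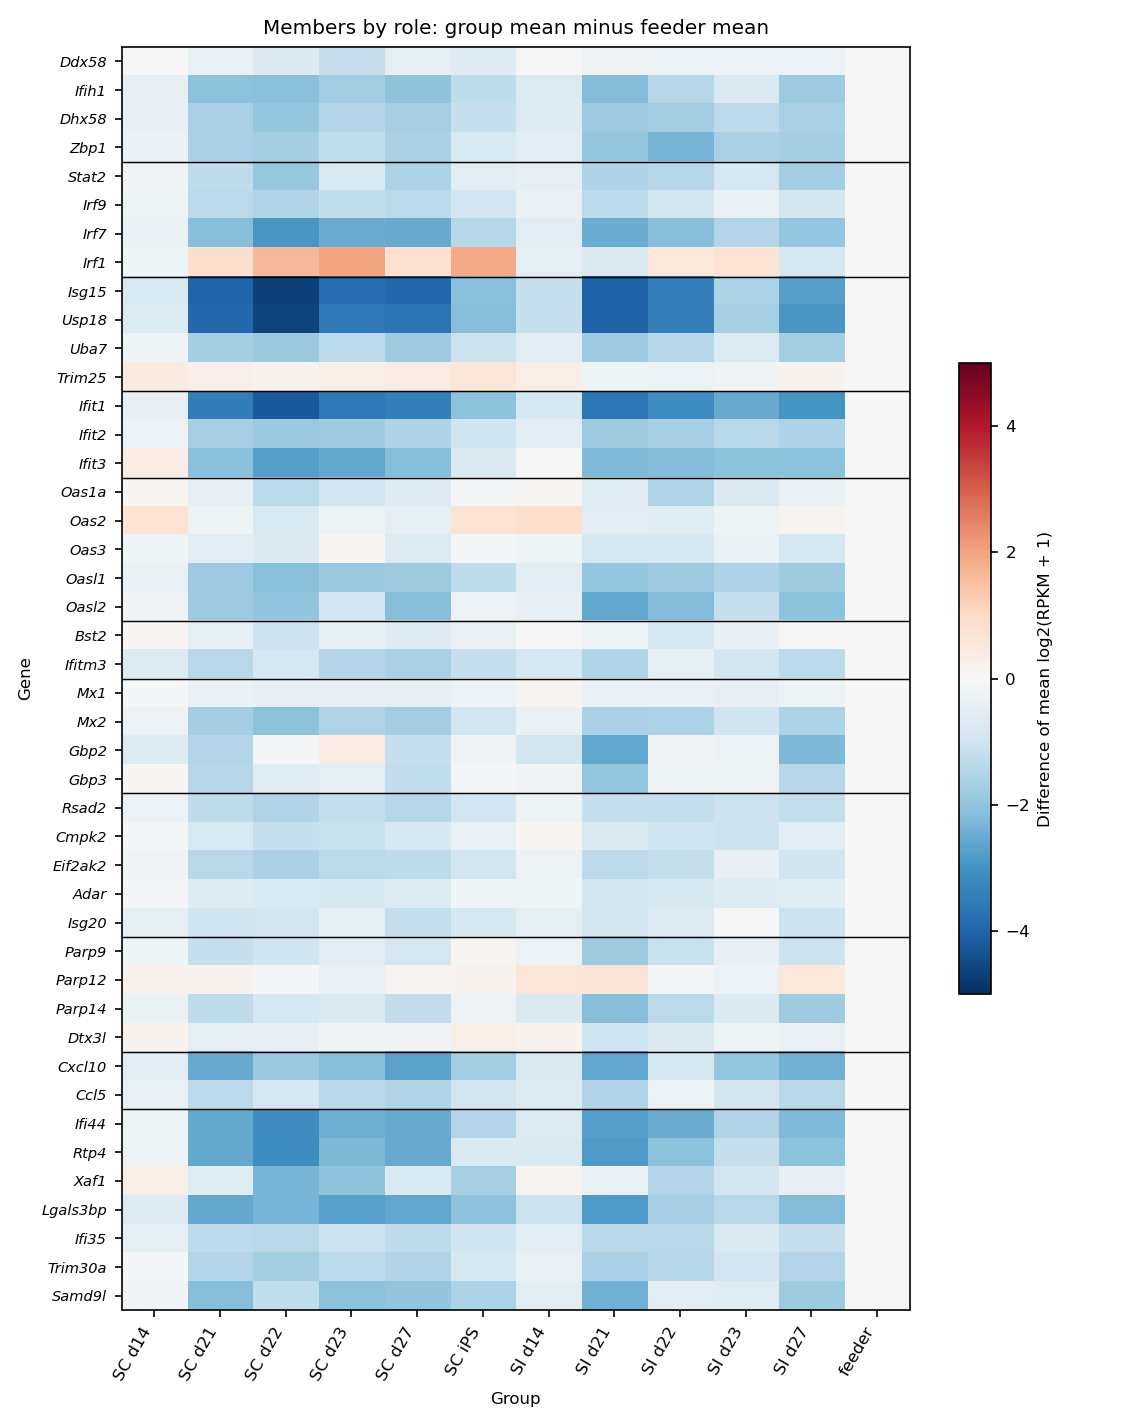
Group mean of log2(RPKM + 1) minus the feeder mean for each member (rows, grouped by role with black lines between roles) in the 12 groups (columns); blue is below feeders and red above. Isg15, Usp18 and Ifit1 are the darkest blue rows at d21 and d22, while Irf1 is red in SC from d21 on and Trim25 and Parp12 stay pale.

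The sensors of viral RNA came in 2 kinds of pattern. Ddx58 (RIG-I, which binds RNA with a triphosphate end) ran over 17.9 to 20.6 RPKM at d14, 10.1 to 20 at d21, 8.81 to 17.2 at d22, 4.64 to 20.6 at d23, 10.1 to 18.3 at d27 and 11.2 to 13.4 in iPS cells in SC clones, over 15.8 to 26.6 at d14, 11.9 to 22.3 at d21, 11.6 to 17.2 at d22, 7.72 to 21.1 at d23 and 13.5 to 17.0 at d27 in SI clones, and over 18.9 to 20.2 RPKM in feeders. Ifih1 (MDA5, a sensor of long double-stranded RNA) ran over 3.92 to 5.70 RPKM at d14, 0.73 to 1.11 at d21, 0.56 to 1.28 at d22, 0.25 to 5.95 at d23, 0.41 to 2.19 at d27 and 1.81 to 2.52 in iPS cells in SC clones, over 1.75 to 10.3 at d14, 0.50 to 1.17 at d21, 1.5 to 2.65 at d22, 1.32 to 5.49 at d23 and 0.87 to 1.52 at d27 in SI clones, and over 6.53 to 6.91 RPKM in feeders. Ddx58 thus stayed between 4.64 and 26.6 RPKM in every library, whereas all d21 and d22 clones had far less Ifih1 than the feeders. Dhx58 (LGP2, their regulator) was low beside feeders too, with 0.357 ± 0.0450 RPKM in SC d22 and 4.19 ± 0.255 RPKM in feeders (mean ± SD). Zbp1, a sensor of Z-form nucleic acids, averaged 1.28 ± 0.640 RPKM in SI d22 and 10.2 ± 0.743 RPKM in feeders. Unlike Ifih1, it had a lower value at d22 than at d21 in every SI clone.

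Of the factors that carry the signal to the genes, Stat2 ran over 13.8 to 22.3 RPKM at d14, 6.00 to 9.79 at d21, 4.40 to 4.81 at d22, 8.71 to 16 at d23, 3.42 to 11.6 at d27 and 11.0 to 16.1 in iPS cells in SC clones, over 6.70 to 33.1 at d14, 5.5 to 6.59 at d21, 4.75 to 11.5 at d22, 5.84 to 14.7 at d23 and 4.36 to 6.38 at d27 in SI clones, and over 18.5 to 21.8 RPKM in feeders. Irf9, which joins Stat2 on DNA, ran over 6.14 to 8.69 RPKM at d14, 2.70 to 3.47 at d21, 2.12 to 3.08 at d22, 1.71 to 8.81 at d23, 2.09 to 4.42 at d27 and 3.82 to 4.79 in iPS cells in SC clones, over 4.86 to 10.6 at d14, 2.27 to 3.96 at d21, 3.53 to 5.10 at d22, 3.78 to 8.18 at d23 and 3.73 to 5.02 at d27 in SI clones, and over 8.65 to 9.42 RPKM in feeders. Irf7, which switches on interferon alpha genes, ran over 9.04 to 14.6 RPKM at d14, 1.56 to 3.76 at d21, 0.93 to 1.22 at d22, 0.42 to 7.28 at d23, 0.50 to 4.56 at d27 and 3.60 to 5.20 in iPS cells in SC clones, over 4.24 to 24.7 at d14, 1.01 to 3.55 at d21, 1.45 to 5.31 at d22, 1.62 to 6.59 at d23 and 1.54 to 4.80 at d27 in SI clones, and over 13.4 to 14.4 RPKM in feeders. In SC clones the ranges at d14 and d21 did not meet for any of the 3, and Irf7 had the widest gap.

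Isg15, Usp18 and Ifit1 had the widest range of group means of all members on the log2 scale. Isg15, a ubiquitin-like protein that is joined to other proteins, ran over 71.7 to 137 RPKM at d14, 5.48 to 16.4 at d21, 5.30 to 7.13 at d22, 2.56 to 94.7 at d23, 2.20 to 47.8 at d27 and 37.3 to 44.9 in iPS cells in SC clones, over 32.7 to 238 at d14, 3.68 to 31.4 at d21, 8.90 to 37.6 at d22, 18.5 to 92.3 at d23 and 14.0 to 33.7 at d27 in SI clones, and over 167 to 176 RPKM in feeders. Usp18, the protease that removes it and damps the receptor, ran over 22.7 to 37.4 RPKM at d14, 1.07 to 4.67 at d21, 0.53 to 1.84 at d22, 0.46 to 25 at d23, 0.45 to 12 at d27 and 6.97 to 14.1 in iPS cells in SC clones, over 8.58 to 72.8 at d14, 0.78 to 6.56 at d21, 2.01 to 11.0 at d22, 4.23 to 26.7 at d23 and 3.42 to 8.56 at d27 in SI clones, and over 49.1 to 49.7 RPKM in feeders. In both genes the iPS libraries lay between the SC libraries of d14 and those of d21.

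Ifit1, which binds RNA that lacks the host's cap methylation, ran over 17.8 to 29.2 RPKM at d14, 0.74 to 3.20 at d21, 0.45 to 1.18 at d22, 0.42 to 9.59 at d23, 0.17 to 8.62 at d27 and 4.51 to 9.74 in iPS cells in SC clones, over 6.93 to 63.7 at d14, 0.61 to 4.79 at d21, 1.44 to 8.78 at d22, 1.78 to 7.17 at d23 and 1.75 to 5.16 at d27 in SI clones, and over 30.7 to 34.3 RPKM in feeders. Ifit3, which stabilises Ifit1 on foreign RNA, ran over 9.28 to 15.8 RPKM at d14, 0.61 to 2.68 at d21, 0.26 to 1.07 at d22, 0.26 to 2.55 at d23, 0.38 to 5.05 at d27 and 3.39 to 8.32 in iPS cells in SC clones, over 4.54 to 43.95 at d14, 0.59 to 2.39 at d21, 0.60 to 5.26 at d22, 1.25 to 2.22 at d23 and 0.99 to 2.89 at d27 in SI clones, and over 9.51 to 10.9 RPKM in feeders. At d22 no SC clone exceeded 1.18 RPKM for either. Ifit3, Oas1a, Trim30a and the Gbp genes have close relatives in the mouse genome, so reads may have been shared among copies.

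Among enzymes that act on RNA, Oas1a, which makes 2-5A to activate RNase L, ran over 13.7 to 17.3 RPKM at d14, 8.82 to 11.5 at d21, 2.91 to 6.86 at d22, 4.68 to 13.6 at d23, 5.21 to 12.1 at d27 and 9.13 to 16.8 in iPS cells in SC clones, over 10.2 to 22.2 at d14, 6.12 to 10.9 at d21, 3.68 to 5.43 at d22, 2.78 to 12.8 at d23 and 8.24 to 14.7 at d27 in SI clones, and over 13.2 to 14.8 RPKM in feeders. Oasl2, a relative with a ubiquitin-like end, ran over 14.0 to 19.6 RPKM at d14, 2.56 to 7.12 at d21, 2.18 to 6.51 at d22, 4.12 to 20.7 at d23, 0.28 to 13.1 at d27 and 8.30 to 24.7 in iPS cells in SC clones, over 6.57 to 39.1 at d14, 1.64 to 3.68 at d21, 2.35 to 6.48 at d22, 2.14 to 13.4 at d23 and 1.92 to 5.55 at d27 in SI clones, and over 18.2 to 19.9 RPKM in feeders. Both reached their highest value in SI3 at d14, and Oas1a had its lowest values 1 or 2 days after withdrawal. Eif2ak2 (PKR, a kinase that stops translation) ran over 16.4 to 20.8 RPKM at d14, 6.37 to 8.50 at d21, 5.71 to 7.53 at d22, 4.53 to 19.4 at d23, 6.64 to 12.6 at d27 and 9.57 to 12.2 in iPS cells in SC clones, over 12.9 to 29.8 at d14, 6.88 to 10.4 at d21, 7.36 to 11.0 at d22, 10.4 to 20.5 at d23 and 7.29 to 12 at d27 in SI clones, and over 20.4 to 22.4 RPKM in feeders. Adar, an RNA editing enzyme, ran over 13.9 to 15.4 RPKM at d14, 8.60 to 9.86 at d21, 7.97 to 10.2 at d22, 6.85 to 13.5 at d23, 6.65 to 13.2 at d27 and 11.3 to 15.4 in iPS cells in SC clones, over 10.54 to 20.3 at d14, 7.32 to 9.14 at d21, 7.32 to 10.3 at d22, 7.37 to 10.8 at d23 and 9.10 to 10.8 at d27 in SI clones, and over 14.4 to 16.5 RPKM in feeders. Adar moved within a narrow band, and Eif2ak2 within a wider one. Rsad2 (viperin, which makes a chain-terminating nucleotide) ran over 1.49 to 1.77 RPKM at d14, 0.17 to 0.47 at d21, 0.08 to 0.24 at d22, 0.10 to 1.27 at d23, 0.10 to 0.53 at d27 and 0.37 to 0.99 in iPS cells in SC clones, over 0.77 to 4.07 at d14, 0.26 to 0.93 at d21, 0.26 to 0.64 at d22, 0.08 to 1.25 at d23 and 0.18 to 0.58 at d27 in SI clones, and over 1.96 to 2.46 RPKM in feeders, so that it was low in every group.

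The membrane factors were abundant in every group. Bst2 (tetherin, which holds budding virus on the cell) ran over 164 to 194 RPKM at d14, 108 to 129 at d21, 75.4 to 95.6 at d22, 76.1 to 198 at d23, 81.0 to 137 at d27 and 92.6 to 166 in iPS cells in SC clones, over 151 to 242 at d14, 113 to 175 at d21, 85.9 to 107 at d22, 48.5 to 194 at d23 and 133 to 186 at d27 in SI clones, and over 162 to 174 RPKM in feeders. Ifitm3 (which blocks fusion in endosomes) ran over 277 to 491 RPKM at d14, 175 to 293 at d21, 219 to 461 at d22, 137 to 395 at d23, 144 to 259.7 at d27 and 251 to 283 in iPS cells in SC clones, over 190.4 to 557 at d14, 152 to 285 at d21, 363 to 511 at d22, 258 to 370.5 at d23 and 183 to 285 at d27 in SI clones, and over 567 to 582 RPKM in feeders. Feeders topped all clones for Ifitm3 but not for Bst2.

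The GTPases were mixed. Mx1, a dynamin-like protein, ran over 0.25 to 0.47 RPKM at d14, 0.03 to 0.14 at d21, 0.04 to 0.06 at d22, 0 to 0.09 at d23, 0 to 0.13 at d27 and 0.08 to 0.16 in iPS cells in SC clones, over 0.22 to 0.92 at d14, 0.04 to 0.14 at d21, 0.06 to 0.16 at d22, 0.03 to 0.05 at d23 and 0.01 to 0.23 at d27 in SI clones, and over 0.29 to 0.48 RPKM in feeders, and so was under 1 RPKM in every library. Gbp2, which attacks the vacuoles of intracellular microbes, ran over 6.86 to 11.7 RPKM at d14, 1.68 to 10.2 at d21, 8.24 to 18.9 at d22, 8.75 to 30.4 at d23, 1.34 to 19.9 at d27 and 4.68 to 29.1 in iPS cells in SC clones, over 2.97 to 20.9 at d14, 1.17 to 2.81 at d21, 10.6 to 15.8 at d22, 6.00 to 15.4 at d23 and 1.84 to 3.14 at d27 in SI clones, and over 13.0 to 15.8 RPKM in feeders. Samd9l, which restricts poxviruses and is no GTPase, ran over 11.8 to 15.6 RPKM at d14, 1.89 to 4.16 at d21, 2.56 to 14.0 at d22, 0.49 to 13.3 at d23, 1.90 to 4.78 at d27 and 2.79 to 8.49 in iPS cells in SC clones, over 4.76 to 24.2 at d14, 1.10 to 4.45 at d21, 8.21 to 12.2 at d22, 6.09 to 12 at d23 and 2.90 to 4.82 at d27 in SI clones, and over 13.4 to 16.6 RPKM in feeders. For Gbp2 and Samd9l the SI clones at d22 lay far above those at d21.

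The chemokines, which draw in leukocytes, were low. Cxcl10 ran over 4.89 to 6.98 RPKM at d14, 0.38 to 1.17 at d21, 0.92 to 4.21 at d22, 0.78 to 2.68 at d23, 0.07 to 1.51 at d27 and 1.19 to 3.00 in iPS cells in SC clones, over 2.18 to 18.5 at d14, 0.36 to 1.03 at d21, 3.04 to 9.87 at d22, 0.60 to 2.26 at d23 and 0.45 to 1.21 at d27 in SI clones, and over 7.94 to 9.5 RPKM in feeders. Ccl5 ran over 2.00 to 3.33 RPKM at d14, 0.55 to 1.78 at d21, 0.70 to 2.34 at d22, 0.34 to 1.84 at d23, 0.15 to 1.59 at d27 and 1.11 to 2.20 in iPS cells in SC clones, over 0.78 to 4.00 at d14, 0.40 to 1.32 at d21, 1.84 to 6.98 at d22, 0.71 to 2.14 at d23 and 0.53 to 1.28 at d27 in SI clones, and over 3.41 to 4.07 RPKM in feeders. Both reached their highest SI values outside d14 at d22.

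The d14 clones were compared with feeders to see how the early reprogramming cells stood against fibroblasts. Here and below, a member was tested where the number of libraries at 1 RPKM or more was no smaller than the size of the smaller group, and was called where the limma p, adjusted over all genes tested, was under 0.05. Each difference is one of log2(RPKM + 1), a scale that shrinks the change of genes at low levels. Of 43 tested members (Mx1 was too low to test) 3 differed, where 63.8% of all genes tested did: Oas2 and Trim25 were higher (41.4% of all genes) and Ifitm3 was lower (22.4%). Trim25, a ubiquitin ligase that acts on RIG-I, measured 24.9, 28.7, 29.9 and 24.3 RPKM in SC1 to SC4 and 25.8, 20.8, 28.0 and 24.5 RPKM in SI1 to SI4, against 19.2, 19.6 and 20.02 RPKM in feeders (log2 0.38 ± 0.10 SE, adjusted p = 0.00813). All 8 clones were above all feeders. Ifitm3 measured 433, 277, 279.6 and 491 RPKM in SC and 190.4, 443, 557 and 224 RPKM in SI, against 582, 567 and 577 RPKM in feeders (log2 -0.76 ± 0.31 SE, adjusted p = 0.0494). Every clone was below every feeder, but SI3 came close to them. Oas2, another maker of 2-5A, was 2.47, 3.63, 2.11 and 2.98 RPKM in SC and 1.72, 2.52, 7.95 and 2.61 RPKM in SI, against 1.02, 1.32 and 1.73 RPKM in feeders (log2 0.76 ± 0.29 SE, adjusted p = 0.0388), and the clones and feeders overlapped through SI1 alone.

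The low count rested on SI3, since leaving out any other library gave 1 to 4 members. At d14 that clone was above every feeder library for 41 of 44 members, while the other 7 d14 clones were above every feeder for 4 to 13. Isg15 was 32.7, 98.1, 238 and 44.8 RPKM in SI1 to SI4 and 106, 71.7, 92.7 and 137 RPKM in SC1 to SC4, against 169, 167 and 176 RPKM in feeders. Ifit3 was 4.54, 8.59, 43.95 and 5.04 RPKM in SI1 to SI4, and 9.88, 10.9 and 9.51 RPKM in feeders. SI3 was the highest of its group for 43 of 44 members. Without SI3, 16 of 42 members differed from feeders, 2 higher and 14 lower (41.9% and 23.8% of all genes), Isg15, Usp18 and Cxcl10 among the lower ones. With libraries rescaled to the median gene, no member was higher and 4 were lower (Ifi35, Ifitm3, Irf9 and Isg20), so Trim25 and Oas2 no longer passed. With no filter Trim25 alone passed. That scaling moved the median of all genes in this comparison by -0.147 on the log2 scale. Fibroblast markers of SI3 at d14 had a mean log2 level of 6.92, below the feeders' 7.16 to 7.23. Over all d14 clones 11 of 20 fibroblast markers were lower than in feeders, and of 14 tested macrophage and leukocyte markers 8 were lower and 1 higher. The fibroblast sums were 2417 to 4827 RPKM in SC and 1572 to 5018 RPKM in SI, against 6479 to 6656 RPKM in feeders. All 7 epithelial markers (Cdh1, Epcam, Krt8, Krt18, Cldn4, Cldn6 and Cldn7) were higher, with sums of 186 to 383 RPKM in SC and 108 to 439.8 RPKM in SI, against 5.48 to 5.56 RPKM in feeders. Their part in the result was not tested.

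Between d14 and d21, with the drug present throughout, the interferon response genes fell in SC clones across nearly all roles. Of 42 tested members 37 were lower at d21 and 0 higher, against 20.6% lower and 22% higher among all genes tested. Among the lower ones Oasl1, Rsad2, Mx2, Dhx58, Uba7 and Trim30a reached 1 RPKM in the d14 libraries alone. The filter thus fixed their lower sign and their lack of overlap. The median difference was -1.13 on the log2 scale for the tested members, with 0.06 for all genes. Counted over all 44 members without a filter, 43, 43, 41 and 42 had a lower value at d21 than at d14 in SC1 to SC4. The 5 tested members that did not pass were Ddx58, Irf1, Trim25, Parp12 and Gbp2. The 2 untested members were Oas3 and Mx1.

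The largest falls were in the genes of ISG15 conjugation and the Ifit family. Usp18 was 4.67, 1.07, 2.64 and 1.88 RPKM at d21, against 34.8, 22.7, 29.4 and 37.4 RPKM at d14 (log2 -3.24 ± 0.29 SE, adjusted p = 0.000196). Isg15 was 16.4, 5.48, 9.47 and 10.2 RPKM at d21, against 106, 71.7, 92.7 and 137 RPKM at d14 (log2 -3.23 ± 0.29 SE, adjusted p = 0.000196). Ifit1 was 3.20, 0.74, 2.84 and 1.87 RPKM at d21, against 26.7, 17.8, 23.7 and 29.2 RPKM at d14 (log2 -3.06 ± 0.27 SE, adjusted p = 0.000196). The groups were far apart for all 3, and for 34 of the 42 tested members every d21 library was below every d14 library, as it was for 20.8% of all genes tested. Ifit3 (-2.44), Rtp4, a receptor-transporter protein that is induced by interferon (-2.29), and Ifi44 (-2.29) completed the 6 largest falls (adjusted p = 0.000357, 0.000117 and 0.000196).

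Smaller falls reached every other role. Among signalling genes Irf7 fell by 1.82 on the log2 scale (adjusted p = 0.000397), and Stat2 and Irf9 by 1.10 and 1.06 (adjusted p = 0.00141 and 0.000376). All 4 tested Oas genes were lower, as were both chemokine genes, Cxcl10 (-1.96, adjusted p = 0.000188) and Ccl5 (-0.95, adjusted p = 0.00472). The abundant Bst2 and Ifitm3 fell by 0.55 and 0.70, and Adar and Eif2ak2 by 0.60 and 1.16 (adjusted p = 0.00298, 0.0347, 0.000922 and 0.000264). Irf1, a transcription factor, had the opposite sign and did not pass, at 5.99, 2.88, 15.8 and 21.0 RPKM at d21 against 4.13, 3.14, 3.53 and 5.22 RPKM at d14 (log2 1.02 ± 0.48 SE, adjusted p = 0.116): it was high in SC3 and SC4 only.

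Markers of other cells moved with this fall. Of 20 fibroblast markers 18 were lower at d21 than at d14 in SC, and their summed level was 1030.0 to 1402 RPKM at d21 against 2417 to 4827 RPKM at d14. Of 13 tested macrophage and leukocyte markers 10 were lower, with sums of 97.6 to 128 RPKM at d21 and 135 to 237 RPKM at d14. Of the 7 epithelial markers Krt18 alone was called, higher, and the sums were 262 to 367 RPKM at d21 and 186 to 383 RPKM at d14. Their part in the result was not tested. In bulk libraries fewer cells of a type and less RNA per cell cannot be told apart. The count of lower members lay between 33 and 38 when any 1 library or clone was left out.

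In SI clones most members also had lower values at d21 in each clone, yet 0 of 39 tested members passed the threshold (limma, 33 at an unadjusted p under 0.05), in a comparison where 0% of all genes passed. Of all 44 members 39, 41, 44 and 42 were lower at d21 than at d14 in SI1 to SI4, and for 27 of the 39 tested members every d21 library was below every d14 library, as it was for 1.71% of all genes tested. Oasl1, Oas2 and Mx2 reached 1 RPKM in the d14 libraries alone, so the filter fixed their sign. In 1 fit over all 12 groups, which share 1 estimate of the spread, 30 of the 39 were lower and 0 higher, against 8.83% and 9.98% of all genes. The smallest p belonged to Dtx3l, a ubiquitin ligase that pairs with Parp9, with 2.54, 2.77, 4.37 and 4.05 RPKM at d21 against 6.84, 8.58, 13.2 and 7.59 RPKM at d14 (log2 -1.17 ± 0.22 SE, adjusted p = 0.246). Next came Oasl2 (log2 -2.17 ± 0.48 SE, adjusted p = 0.246) and Parp9 itself (log2 -1.47 ± 0.34 SE, adjusted p = 0.246). Isg15 was 3.68, 12, 31.4 and 5.16 RPKM at d21 against 32.7, 98.1, 238 and 44.8 RPKM at d14. SI3 was the highest library at both times. Without SI3 at d21, 16 of 42 members were lower and 0 higher (4.77% and 9.16% of all genes), and with clone SI3 left out at both times 10 were lower (0.635% of all genes). In both of these fits Ifih1, Ifi44, Parp14 and Uba7 also reached 1 RPKM in the d14 libraries alone. With only SI3 at d21 left out, so did Rsad2, Dhx58, Ccl5, Isg20 and Trim30a. The filter thus fixed or favoured the lower sign of these genes. With clones as a block, 4 passed, all lower (Ifit1, Isg15, Rtp4 and Usp18), against 0.0596% lower among all genes in that fit. Whether this difference was itself different between the classes was not tested. Fibroblast markers summed to 1139 to 2911 RPKM at d21 and 1572 to 5018 RPKM at d14, and epithelial markers to 70.0 to 434 RPKM at d21 and 108 to 439.8 RPKM at d14, with 0 of either list called.

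The day after doxycycline was withdrawn, the members split in SI clones. Of 32 tested, 10 were higher at d22 than at d21 and 3 lower, against 19.1% higher and 18.8% lower among all genes. Cxcl10, Ccl5, Ifih1 and Parp14 reached 1 RPKM mostly in the d22 libraries, which favoured a rise. Gbp2 led, with 12.9, 15.8, 10.6 and 12.7 RPKM at d22 against 1.30, 1.21, 2.81 and 1.17 RPKM at d21 (log2 2.44 ± 0.20 SE, adjusted p = 0.000313). Samd9l was 10.7, 9.07, 8.21 and 12.2 RPKM at d22 against 1.10, 1.66, 4.45 and 1.8 RPKM at d21 (log2 1.85 ± 0.27 SE, adjusted p = 0.00189). Both rises were seen in every clone, with no overlap. The related Gbp3 rose by 1.71 (adjusted p = 0.00164).

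Irf1 measured 7.15, 8.75, 5.55 and 8.43 RPKM in SI clones at d22 against 2.18, 2.53, 3.03 and 2.58 RPKM at d21 (log2 1.23 ± 0.15 SE, adjusted p = 0.000953). The chemokine Cxcl10 was 3.04, 3.37, 9.87 and 3.34 RPKM at d22 against 0.36, 1.03, 0.92 and 0.38 RPKM at d21 (log2 1.71 ± 0.32 SE, adjusted p = 0.00470). Ccl5 was 1.84, 2.16, 6.98 and 2.11 RPKM at d22 against 0.40, 0.66, 1.32 and 0.48 RPKM at d21 (log2 1.20 ± 0.33 SE, adjusted p = 0.0216). SI3 was far above the other clones at d22 for both chemokines, and the groups did not overlap. The 4 other members that rose were Ifitm3, Parp14, Ifih1 and Parp9. The 12 members too low to test were Oasl1, Oas2, Oas3, Rsad2, Mx1, Mx2, Ifi44, Dhx58, Cmpk2, Isg20, Uba7 and Trim30a.

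Xaf1, Oas1a and Bst2 fell at d22 in both classes. Xaf1, a cell-death factor that opposes XIAP, was 4.62, 3.47, 5.06 and 4.55 RPKM in SI at d22 against 9.92, 13.2, 7.53 and 14.9 RPKM at d21 (log2 -1.16 ± 0.20 SE, adjusted p = 0.00359), and 1.73, 3.02, 1.85 and 1.60 RPKM in SC at d22 against 9.39, 11.0, 8.78 and 6.61 RPKM at d21 (log2 -1.71 ± 0.19 SE, adjusted p = 0.00876). Oas1a was 5.43, 3.68, 4.09 and 3.75 RPKM in SI at d22 against 9.55, 10.9, 6.12 and 8.88 RPKM at d21 (log2 -0.90 ± 0.18 SE, adjusted p = 0.00608), and 2.91, 3.94, 6.77 and 6.86 RPKM in SC at d22 against 11.3, 11.5, 8.82 and 9.15 RPKM at d21 (log2 -0.92 ± 0.24 SE, adjusted p = 0.0495). The groups did not overlap in either class. Bst2 was 85.9, 88.7, 95.9 and 107 RPKM in SI at d22 against 147, 175, 113 and 140.1 RPKM at d21 (log2 -0.59 ± 0.15 SE, adjusted p = 0.0158), and 75.4, 83.4, 95.6 and 78.6 RPKM in SC at d22 against 129, 119, 127 and 108 RPKM at d21 (log2 -0.53 ± 0.12 SE, adjusted p = 0.0355).

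Only these 3, Stat2 (log2 -0.63 ± 0.14 SE, adjusted p = 0.0369) and Irf7 (log2 -0.76 ± 0.18 SE, adjusted p = 0.0441) passed in SC at d22, so 5 of 31 tested members were lower and 0 higher, with 4.75% lower and 3.42% higher among all genes (8.17% in all). The 5 calls in SC are fragile: leaving out 1 library or clone gave 0 to 4, and SC1 or SC3 left out at both times gave 0. With 1 fit over all groups Oas1a and Xaf1 alone passed, and with no filter Bst2 and Xaf1 alone. With clones as a block, 5 members were higher and 9 lower in SC, against 16.8% and 20.4% of all genes. The 5 were Cxcl10, Gbp2, Gbp3, Irf1 and Parp14, and all 5 were also called higher in SI. Gbp2 was 8.24, 13.4, 18.2 and 18.9 RPKM in SC at d22 against 2.37, 1.68, 10.2 and 9.33 RPKM at d21, higher at d22 in each of the 4 clones (with the block, log2 1.40, adjusted p = 0.0101).

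At d22, markers of other cells were higher too. In SI 9 of 20 fibroblast markers rose, their sum being 2732 to 6779 RPKM at d22 against 1139 to 2911 RPKM at d21. Of 13 tested macrophage and leukocyte markers 11 rose, with sums of 205 to 449 RPKM at d22 and 107 to 163 RPKM at d21, and SI3 at the top at both times. Of the 7 epithelial markers Krt8, Cldn4 and Krt18 rose, with sums of 180.1 to 1278 RPKM at d22 and 70.0 to 434 RPKM at d21. In SC, where members were called lower at d22, 2 of 20 fibroblast markers, 1 of 13 tested macrophage and leukocyte markers and 1 of 7 epithelial markers rose, while 20, 11 and 6 had a positive difference. Epithelial sums in SC were 254 to 616 RPKM at d22 and 262 to 367 RPKM at d21. Their part in the result was not tested. Across the left-out libraries and clones of SI the count of members called was 6 to 18.

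After 2 days without the drug the rise in SI clones reached most roles. Of 36 tested members 22 were higher at d23 than at d21 and 1 was lower, against 22.7% and 32% of all genes (54.6% in all). Isg20 reached 1 RPKM in the d23 libraries alone, so the filter fixed its rise. Uba7, Ifih1, Parp14, Ifi44 and Cxcl10 reached it mostly in those libraries, which favoured a rise. The tested members had a median difference of 0.91 on the log2 scale and all genes -0.12. All 4 signalling members rose, as did 3 of 4 genes of ISG15 conjugation and both tested GTPases; none of the 3 Ifit genes passed. Isg15 was 92.3, 74.4, 18.5 and 76.5 RPKM at d23 against 3.68, 12, 31.4 and 5.16 RPKM at d21 (log2 2.44 ± 0.68 SE, adjusted p = 0.0144). Usp18 was 26.7, 17.7, 4.23 and 22.8 RPKM at d23 against 0.78, 2.25, 6.56 and 0.99 RPKM at d21 (log2 2.38 ± 0.60 SE, adjusted p = 0.00971). SI1, SI2 and SI4 rose together, whereas SI3 was lower at d23 than at d21 for both genes, so the groups overlapped.

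Gbp2 did not share that overlap, with 15.4, 13.6, 6.00 and 15.3 RPKM in SI at d23 against 1.30, 1.21, 2.81 and 1.17 RPKM at d21 (log2 2.34 ± 0.30 SE, adjusted p = 0.000440). Samd9l was 12, 10.3, 6.09 and 11.3 RPKM at d23 against 1.10, 1.66, 4.45 and 1.8 RPKM at d21 (log2 1.81 ± 0.31 SE, adjusted p = 0.00144), also without overlap. Rtp4 (log2 1.69 ± 0.57 SE, adjusted p = 0.0327) and Gbp3 (log2 1.69 ± 0.44 SE, adjusted p = 0.0106) completed the 6 largest rises. Parp12, a mono-ADP-ribosyltransferase of stressed and infected cells, was the 1 member that fell, with 15.5, 14.9, 5.68 and 14.2 RPKM at d23 against 30.8, 26.3, 14.0 and 25.9 RPKM at d21 (log2 -0.93 ± 0.33 SE, adjusted p = 0.0413). It was lower at d23 in every clone, and the groups overlapped through SI3 at d21. The 8 members too low to test were Oasl1, Oas2, Oas3, Rsad2, Mx1, Mx2, Cmpk2 and Trim30a.

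SI3 decided the size of this result. At d23 it was the lowest of the SI clones for 40 of 44 members, and 32 of its 44 members were lower at d23 than at d21, against 2, 9 and 4 in SI1, SI2 and SI4. With clone SI3 left out at both times, 33 of 39 members were higher and 2 lower (29.3% and 36.9% of all genes), whereas with clone SI1, SI2 or SI4 left out at both times 9, 8 and 8 were higher and 0 lower, against 16.6%, 14.1% and 14.8% of all genes higher. Without clone SI3, Isg20, Ifih1, Parp14, Ifi44, Uba7, Ccl5, Dhx58, Oasl1, Mx2 and Trim30a reached 1 RPKM in the d23 libraries alone. The filter thus fixed their rise in that fit. The fibroblast markers of SI3 had the highest mean log2 level of the SI clones at d23, 7.60 against 6.44 to 6.69, and its macrophage and leukocyte markers likewise, 2.60 against 2.03 to 2.22, while its pluripotency markers had the lowest, 0.28 against 0.93 to 1.65. Its epithelial markers were the lowest too, 3.22 against 7.01 to 7.62. Over the 4 clones 16 of 20 fibroblast markers rose, their sum being 4536 to 8048 RPKM at d23 against 1139 to 2911 RPKM at d21, and 10 of 12 tested macrophage and leukocyte markers rose, with sums of 204 to 387 RPKM at d23 and 107 to 163 RPKM at d21. Of the 7 epithelial markers Krt8, Cldn4 and Krt18 rose, with sums of 119 to 2372 RPKM at d23 and 70.0 to 434 RPKM at d21. Their part in the result was not tested.

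**Figure D3:**
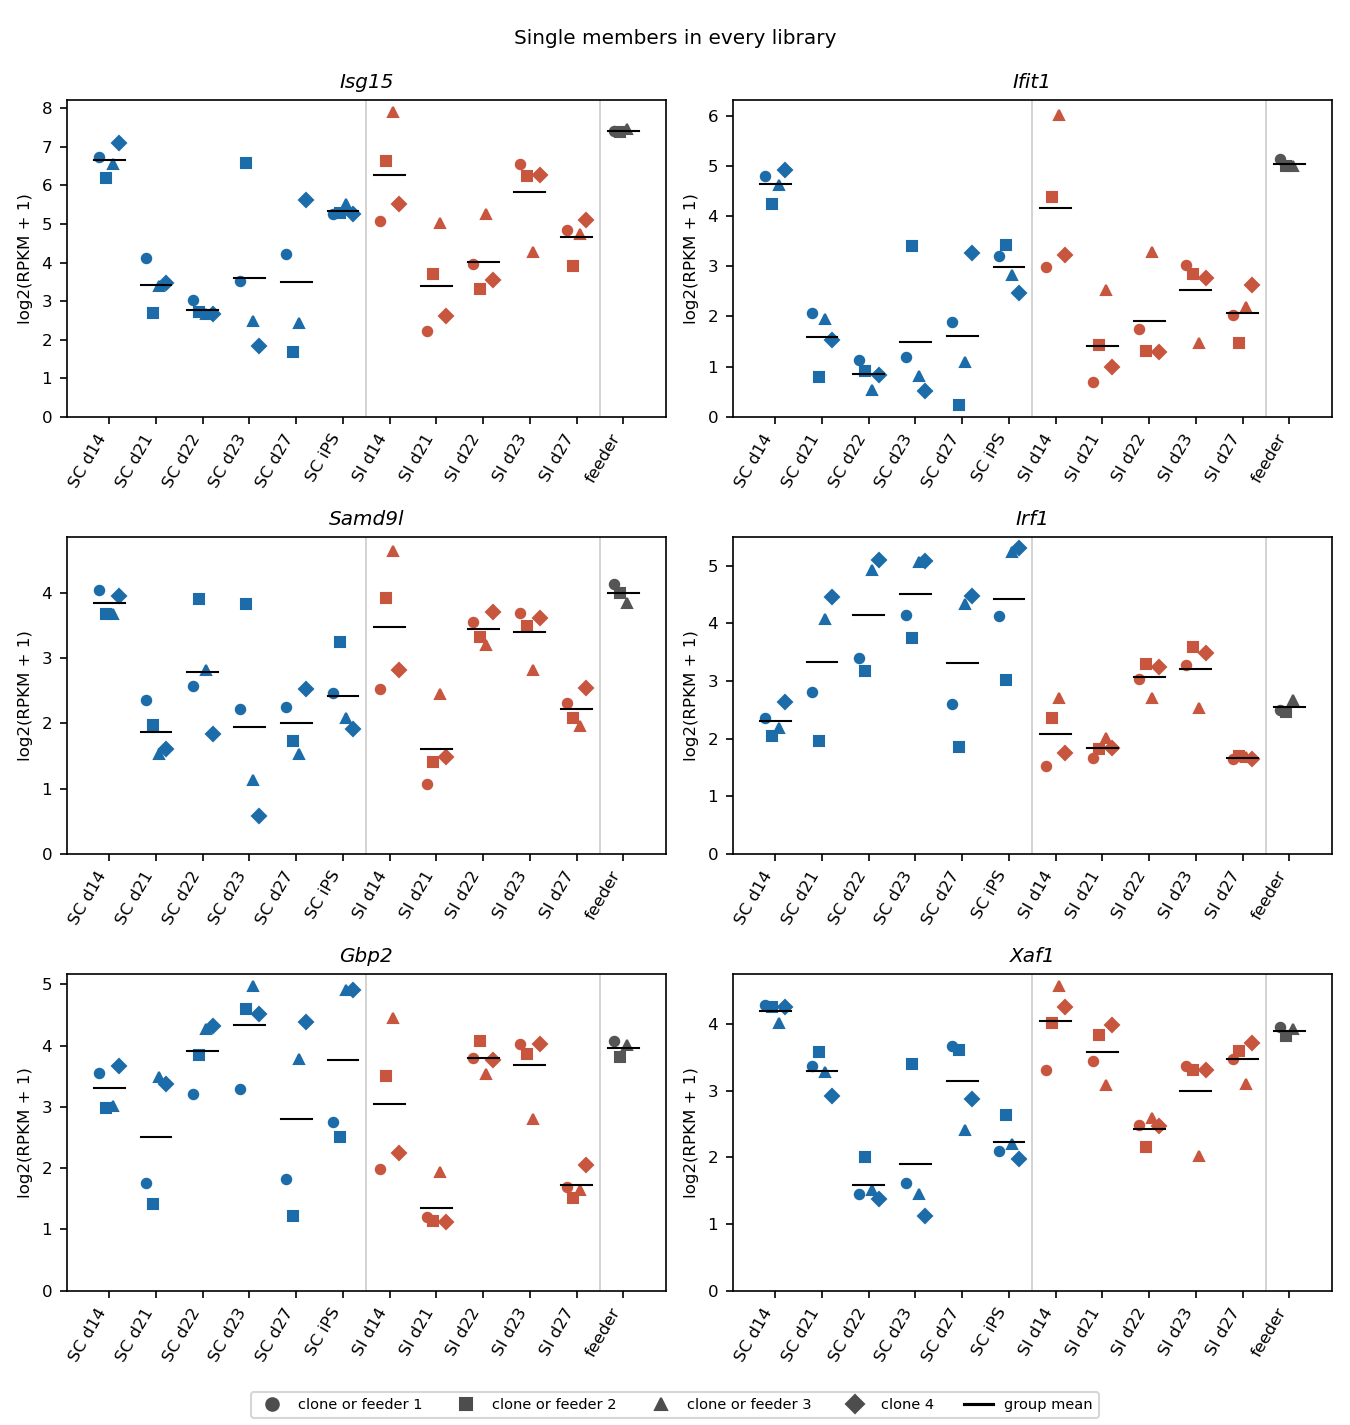
log2(RPKM + 1) of Isg15, Ifit1, Samd9l, Irf1, Gbp2 and Xaf1 in each library by group, with symbols for clone or feeder number and a line at the group mean. Xaf1 is lower at d22 than at d21 in every clone, Irf1 is higher in SC3 and SC4 than in SC1 and SC2 from d21 on, and SI3 is the lowest SI library at d23 in all 6 panels.

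In SC clones at d23, 0 of 31 tested members passed against d21 (limma, 4 at an unadjusted p under 0.05), where 3.79% of all genes did. The smallest p was that of Gbp2, with 8.75, 23.1, 30.4 and 21.7 RPKM at d23 against 2.37, 1.68, 10.2 and 9.33 RPKM at d21 (log2 1.83 ± 0.55 SE, adjusted p = 0.105). Behind it came Xaf1 (log2 -1.40 ± 0.45 SE, adjusted p = 0.131) and Isg20, an RNA exonuclease (log2 0.57 ± 0.20 SE, adjusted p = 0.152). With clones as a block, Gbp2, Irf1 and Isg20 were higher and Xaf1 was lower, in a fit that placed 4.53% of genes higher and 8.84% lower. Isg15 showed how the clones parted, with 10.4, 94.7, 4.64 and 2.56 RPKM in SC1 to SC4 at d23 and 16.4, 5.48, 9.47 and 10.2 RPKM at d21. SC2 alone was high. Of its 44 members 40 were higher at d23 than at d21, against 9, 17 and 14 in SC1, SC3 and SC4. Without SC2 at d23 the count was 0 higher and 3 lower, against 1.67% and 4.37% of all genes. In 1 fit over all groups, 2 were higher (Gbp2 and Isg20) and 2 lower (Ddx58 and Xaf1), against 4.57% and 11.3%.

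SC and SI clones were compared with each other at each time. Neither at d14 (42 members tested) nor at d21 (30 tested) did any member differ by limma, with 0 and 7 at an unadjusted p under 0.05, and 0% and 0% of all genes called. At d14 the smallest p-values were those of Parp12 (log2 -0.40 ± 0.18 SE, adjusted p = 0.999), Rtp4 (log2 0.48 ± 0.46 SE, adjusted p = 0.999) and Ccl5 (log2 0.34 ± 0.33 SE, adjusted p = 0.999). At d21 the smallest was that of Dtx3l, with 5.72, 4.54, 6.28 and 5.28 RPKM in SC against 2.54, 2.77, 4.37 and 4.05 RPKM in SI (log2 0.56 ± 0.17 SE, adjusted p = 0.313). Trim25, with 21.6, 19.1, 27.5 and 27.9 RPKM in SC against 16.1, 16.2, 18.8 and 16.7 RPKM in SI (log2 0.46 ± 0.14 SE, adjusted p = 0.317), and Irf1 (log2 1.49 ± 0.48 SE, adjusted p = 0.323) came next. Dtx3l and Trim25, 2 of the 30 tested members, were higher in every SC than in every SI library at d21, as were 4.8% of all genes tested. Neither passed.

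At d22 0 of 32 members passed (limma, 11 at an unadjusted p under 0.05), with 0% of all genes called. Xaf1 was 1.73, 3.02, 1.85 and 1.60 RPKM in SC against 4.62, 3.47, 5.06 and 4.55 RPKM in SI (log2 -0.84 ± 0.17 SE, adjusted p = 0.10). Rtp4 was 1.47, 2.68, 1.8 and 1.39 RPKM in SC against 4.14, 3.84, 8.43 and 3.86 RPKM in SI (log2 -1.06 ± 0.24 SE, adjusted p = 0.10). Irf9 followed (log2 -0.59 ± 0.14 SE, adjusted p = 0.10). All SC libraries lay below all SI libraries for these 3 genes, as for 8 of the 32 tested members in all and 8.01% of all genes tested. Without SC2 at d22, 8 of 33 members passed: Irf1 was higher, and Ddx58, Eif2ak2, Ifih1, Irf9, Rtp4, Samd9l and Xaf1 were lower, against 19% and 15.2% of all genes. Ifih1 then reached 1 RPKM in SI libraries alone, so the filter fixed its lower sign. In 1 fit over all groups Cxcl10 and Xaf1 were lower and 0 members higher, against 12.5% and 16.7% of all genes.

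At d23, 1 of 40 members was higher in SC and 1 was lower, whereas 23% of all genes were higher and 19.5% lower. Irf1 was higher, with 16.7, 12.5, 32.6 and 32.8 RPKM in SC against 8.66, 11.0, 4.74 and 10.2 RPKM in SI (log2 1.30 ± 0.36 SE, adjusted p = 0.0290), and every SC library was above every SI library. Lgals3bp, a secreted binding partner of galectins, was lower, with 26.3, 57.3, 17.5 and 11.0 RPKM in SC against 53.2, 60.5, 76.9 and 52.7 RPKM in SI (log2 -1.33 ± 0.43 SE, adjusted p = 0.0390). Its groups overlapped through SC2. Neither call was stable: leaving out any library other than SC2 at d23 gave 0 members called, as did clone numbers as a block, and with no filter Irf1 alone passed. In 1 fit over all groups, 2 members were higher (Irf1 and Trim25) and 12 lower, against 30.5% and 30.4% of all genes.

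SC2 was again the library that mattered. At d23 it was the highest SC library for 38 of 44 members, and its Isg15, 94.7 RPKM, lay with SI1, SI2 and SI4 (92.3, 74.4 and 76.5 RPKM) rather than with the other SC clones (2.56, 4.64 and 10.4 RPKM). Without it 21 of 40 members were lower in SC and 1 was higher, against 32.5% and 32.8% of all genes; Isg15 then stood at log2 -3.22, adjusted p = 0.00236. The lower ones included Usp18, Ifit1, Irf7, Irf9, Rtp4 and Samd9l, and Irf1 was the higher one. In this fit Ifit3, Ifih1, Ifi44, Mx2, Oasl1, Dhx58, Ccl5 and Trim30a reached 1 RPKM in SI libraries alone. The filter thus fixed or favoured their lower sign. SC2 at d23 also had the highest fibroblast level of the SC clones, a mean log2 of 6.45 against 4.41 to 5.86, and the lowest pluripotency level, 3.72 against 5.78 to 6.21. Its epithelial level was the highest of the SC clones, 6.95 against 5.93 to 6.44, and none of the 7 epithelial markers was called between the classes. Of 20 fibroblast markers 12 were lower in SC than in SI, and 8 of 13 tested macrophage and leukocyte markers. The fibroblast sums were 685 to 4041 RPKM in SC and 4536 to 8048 RPKM in SI. Macrophage and leukocyte markers summed to 91.0 to 181 RPKM in SC and 204 to 387 RPKM in SI. Their part in the result was not tested.

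Whether the change from d21 to d23 differed between the classes was asked directly. No member passed out of 42 (limma, 2 at an unadjusted p under 0.05), and 0% of all genes passed. With clones as a block still no member passed, although 23.2% of all genes did (10.8% with a lower change in SC than in SI). The difference of changes, SC minus SI, was log2 -1.61 ± 0.69 SE, adjusted p = 0.168 for Lgals3bp, log2 -1.74 ± 0.75 SE, adjusted p = 0.169 for Samd9l and log2 -1.33 ± 0.67 SE, adjusted p = 0.218 for Irf7. Without SC2 at d23, 16 members passed, all with a lower change in SC than in SI, against 16.5% of all genes with that sign. They included Isg15, Usp18, Ifit1, Ifih1, Irf7, Irf9 and Samd9l. With clone SC2 left out at both times there were 19, all of the same sign, against 14.1% of all genes.

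**Figure D4:**
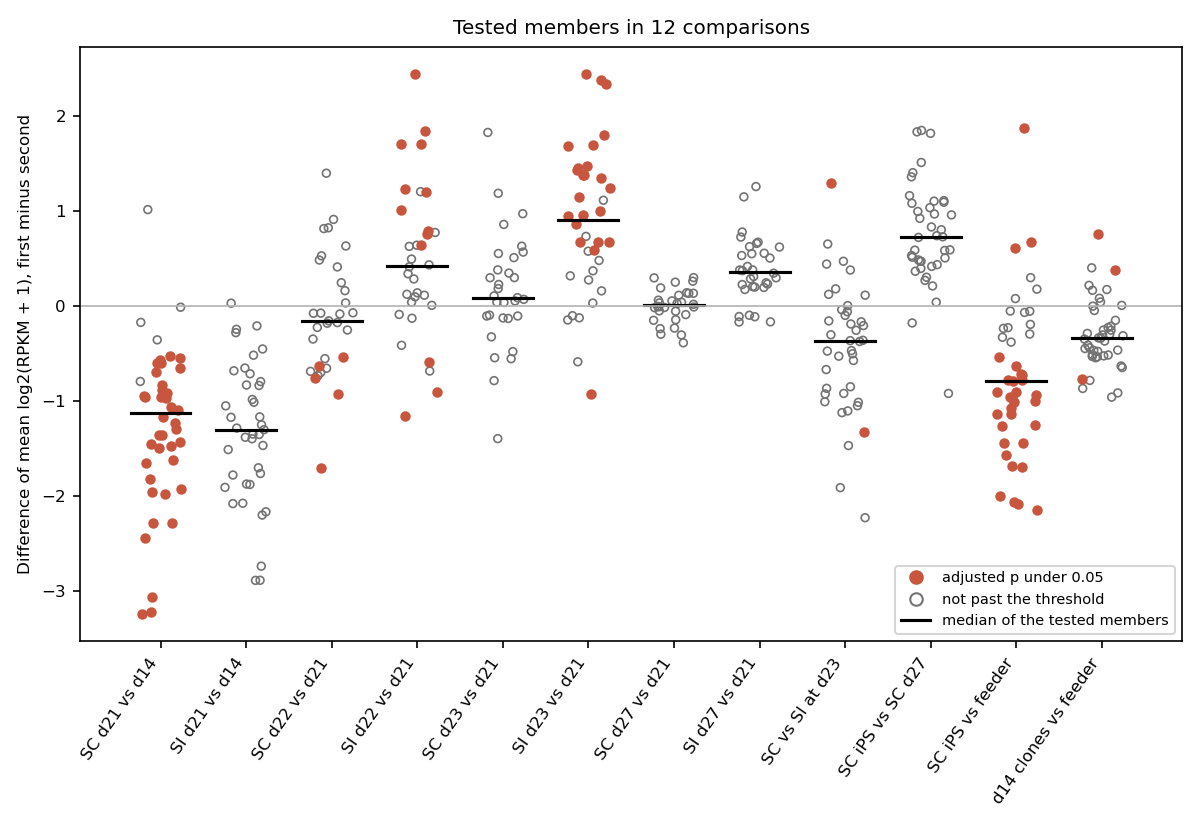
Difference of mean log2(RPKM + 1), first group minus second, for each tested member in 12 comparisons; filled points passed an adjusted p of 0.05 and the black line is the median of the tested members. The points lie almost all below 0 for d21 against d14 in both classes (38 of 39 in SI, with no filled point), and mostly above 0 for SI d23 against d21 and for iPS cells against SC d27.

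With doxycycline kept on to d27, no member was called in either class. SC clones at d27 had 0 of 30 tested members called against d21 (limma, 0 at an unadjusted p under 0.05; 0.00847% of all genes). The 3 smallest p-values were those of Dtx3l (log2 0.25 ± 0.21 SE, adjusted p = 0.687), Oas1a (log2 -0.24 ± 0.22 SE, adjusted p = 0.713) and Stat2 (log2 -0.30 ± 0.30 SE, adjusted p = 0.734). The clones went separate ways, since SC4 was higher at d27 than at d21 for 43 of 44 members, and SC1, SC2 and SC3 were higher for 8, 3 and 7. In SI, 0 of 32 members passed (limma, 9 at an unadjusted p under 0.05; 0% of all genes). Trim25 was 23.7, 22.1, 21.6 and 21.9 RPKM in SI at d27 against 16.1, 16.2, 18.8 and 16.7 RPKM at d21 (log2 0.38 ± 0.08 SE, adjusted p = 0.0929). Dtx3l had log2 0.63 ± 0.15 SE, adjusted p = 0.0929, and Parp9 log2 0.73 ± 0.21 SE, adjusted p = 0.0929. Without SI3 at d21, 18 of 34 members were higher at d27 and 1 was lower, against 24.9% and 23.7% of all genes. Oas2, Ifih1, Ifi44 and Parp14 then reached 1 RPKM in the d27 libraries alone, which fixed or favoured their positive sign.

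Between the classes at d27 no member of 33 passed (limma, 3 at an unadjusted p under 0.05; 0.634% of all genes). Bst2 was 137, 106, 81.0 and 119.6 RPKM in SC against 186, 133, 171 and 181 RPKM in SI (log2 -0.61 ± 0.17 SE, adjusted p = 0.119). Irf1 was 5.09, 2.61, 19.1 and 21.2 RPKM in SC against 2.11, 2.25, 2.21 and 2.14 RPKM in SI (log2 1.65 ± 0.55 SE, adjusted p = 0.155), and Irf9 had log2 -0.43 ± 0.18 SE, adjusted p = 0.200. Irf1 was higher in every SC clone than in any SI clone, although SC2 lay close to SI. The SI clones lay between 2.11 and 2.25 RPKM.

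In iPS cells, which had been without the drug for 6 days, most members were above their SC d27 values, but not past the threshold. Of 40 tested members 0 passed (limma, 23 at an unadjusted p under 0.05; 0.42% of all genes higher and 1.2% lower), and 38 had a positive difference, with a median difference of 0.73 on the log2 scale and -0.08 for all genes. Oasl1, Oas2, Mx2, Ifih1, Dhx58, Cxcl10, Ccl5, Uba7 and Trim30a reached 1 RPKM in every iPS library but at d27 in SC4 alone. The filter thus favoured a positive difference for them. Rtp4 was 14.6, 9.58, 18.2 and 13.5 RPKM in iPS cells against 3.59, 1.31, 1.38 and 10.8 RPKM at d27 (log2 1.82 ± 0.48 SE, adjusted p = 0.0681). Stat2 was 14.8, 11.0, 16.1 and 12.5 RPKM in iPS cells against 5.91, 3.42, 5.43 and 11.6 RPKM at d27 (log2 1.04 ± 0.28 SE, adjusted p = 0.0719). Uba7, the enzyme that activates ISG15, was 2.02, 2.21, 1.49 and 1.51 RPKM in iPS cells against 0.77, 0.27, 0.46 and 1.44 RPKM at d27 (log2 0.73 ± 0.20 SE, adjusted p = 0.0736). Only Uba7 had every iPS library above every d27 library, as had 3.53% of all genes tested, and SC4 was the highest d27 library for all 3 members.

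SC4 at d27 decided this count. It was the highest SC library at d27 for 40 of 44 members, with Isg15 at 47.8 RPKM against 2.20 to 17.5 RPKM in SC1 to SC3, and its iPS library had 37.6 RPKM. In SC1, SC2 and SC3, 40, 38 and 43 members were higher in iPS cells than at d27, and in SC4 20 were. Without SC4 at d27, 29 of 41 members were higher in iPS cells and 1, Xaf1, was lower, against 5.87% and 17.2% of all genes; Isg15 then had log2 2.56, adjusted p = 0.0110. In that fit Oasl1, Oas2, Oas3, Mx2, Ifih1, Dhx58, Cxcl10, Ccl5, Uba7 and Trim30a reached 1 RPKM in iPS libraries alone. The filter thus fixed or favoured their positive sign. With clone SC4 left out of both groups, 20 were higher and 0 lower, against 2.57% and 10.1% of all genes. The same members, except Oas3, again passed the filter through iPS libraries alone. With clones as a block and all 4 kept, 8 were higher and 0 lower (Gbp2, Gbp3, Irf1, Oasl2, Parp14, Parp9, Rtp4 and Stat2), against 4.21% and 7.77% of all genes. In 1 fit over all groups, 7 were higher and 1, Xaf1, was lower, against 4.74% and 13.5%.

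Fibroblast markers did not share the sign of the members here. None of 20 was called in iPS cells against d27, 16 had a negative difference, and their sums were 599 to 1626 RPKM in iPS cells and 924 to 1126 RPKM at d27. Macrophage and leukocyte markers summed to 47.7 to 80.3 RPKM in iPS cells and 75.2 to 129.8 RPKM at d27, and 0 of 9 tested ones were higher. Of the 7 epithelial markers Krt8 was lower and none higher.

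Against feeders, iPS cells had 28 of 43 tested members lower and 3 higher, where 38.8% of all genes were lower and 41.2% higher (79.9% in all). Rsad2 reached 1 RPKM in the feeders alone, so the filter fixed its lower sign. The median difference was -0.79 on the log2 scale for the tested members and 0.06 for all genes. All 4 sensors and all 3 Ifit genes were lower, while none of the 4 genes of the Parp9, Parp12, Parp14 and Dtx3l set was called. Usp18 was 11.7, 14.1, 9.99 and 6.97 RPKM in iPS cells against 49.1, 49.7 and 49.1 RPKM in feeders (log2 -2.14 ± 0.19 SE, adjusted p = 1.88e-05). Isg15 was 37.3, 38.1, 44.9 and 37.6 RPKM in iPS cells against 169, 167 and 176 RPKM in feeders (log2 -2.09 ± 0.10 SE, adjusted p = 1.38e-06). Both genes were tightly grouped on either side and far from overlapping. Ifit1 (-2.07), Lgals3bp (-2.0), Cxcl10 (-1.70) and Xaf1 (-1.68) followed, with adjusted p = 3.16e-05, 1.42e-05, 5.08e-05 and 2.10e-05.

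The 3 members that were higher in iPS cells than in feeders were Irf1, Oas2 and Trim25. Irf1 was 16.5, 7.10, 36.6 and 38.5 RPKM in iPS cells against 4.62, 4.53 and 5.33 RPKM in feeders (log2 1.88 ± 0.50 SE, adjusted p = 0.00729). Trim25 was 31.9, 23.0, 36.1 and 32.3 RPKM in iPS cells against 19.2, 19.6 and 20.02 RPKM in feeders (log2 0.61 ± 0.15 SE, adjusted p = 0.00420). Neither gene overlapped between the groups. Oas2 was 3.57, 1.38, 4.22 and 2.39 RPKM in iPS cells against 1.02, 1.32 and 1.73 RPKM in feeders (log2 0.67 ± 0.26 SE, adjusted p = 0.0368), and SC2 lay within the feeder range. Of 20 fibroblast markers 18 were lower in iPS cells, with sums of 599 to 1626 RPKM in iPS cells and 6479 to 6656 RPKM in feeders. Of 14 tested macrophage and leukocyte markers 12 were lower as well, with sums of 47.7 to 80.3 RPKM in iPS cells and 231 to 244 RPKM in feeders, and all 7 epithelial markers were higher, with sums of 73.2 to 199.96 RPKM in iPS cells and 5.48 to 5.56 RPKM in feeders. Their part in the result was not tested.

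The genes upstream of the members were read from a list of 36 ligands, receptors, sensors and signalling genes, 35 of which were in the table. Of the interferon genes, Ifna1 was listed at 0 in every library, and the group means of Ifna2, Ifna4, Ifnb1, Ifng, Ifne and Ifnz did not exceed 0.0633 RPKM. Ifnk (interferon kappa, known from keratinocytes) was the highest, with group means of 1.24 ± 0.783 RPKM in SI d23 and 0.735 ± 1.05 RPKM in SC d23, and 0.01 to 0.303 RPKM in the other groups. None of these 8 interferon genes was abundant in any group. Other interferon genes were not read.

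Both chains of the interferon gamma receptor and the type I receptor chain Ifnar2 were called lower at d21 than at d14 in SC, higher at d23 than at d21 in SI and lower in iPS cells than in feeders. Ifnar2 had log2 -0.88 ± 0.14 SE, adjusted p = 0.00136 for SC d21 against d14, log2 0.79 ± 0.18 SE, adjusted p = 0.00561 for SI d23 against d21 and log2 -1.82 ± 0.18 SE, adjusted p = 2.65e-05 for iPS cells against feeders.

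Of 25 tested pathway genes 13 were lower and 3 higher at d21 than at d14 in SC, against 20.6% and 22% of all genes. In SI 14 were higher and 1 lower at d23 than at d21, against 22.7% and 32%. At d22 in SI, 11 of 24 were higher than at d21 and 1 was lower, against 19.1% and 18.8%. Both SI counts share the d21 libraries. In SC against SI at d23, 13 of 25 were lower and 3 higher, against 19.5% and 23% of all genes. In iPS cells against feeders 17 were lower and 4 higher, against 38.8% and 41.2% (79.9% in all). Jak1, Jak2, Ifngr1, Ifngr2, Ifnar2, Il10rb, Ticam1, Myd88 and Traf3 were among the called genes in all 5 of these comparisons. Mavs, the mitochondrial adaptor of the RNA sensors, ran the other way at withdrawal, with 6.79 ± 0.447 RPKM at d23 against 16.9 ± 1.52 RPKM at d21 in SI (log2 -1.20 ± 0.10 SE, adjusted p = 9.27e-05). Socs3, Ptpn6 and Ptpn2, which damp cytokine signalling, were higher in SC clones at d21 than at d14, in SC than in SI at d23 and in iPS cells than in feeders.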

How the data were processed

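The deposited table gives 1 RPKM value per gene and library, made by the authors; the unit was inferred from the values, since no header names it. CASAVA 1.8 and the genome build mm9 are named, without a role, in the submitters' processing notes; no source used here gives the aligner, the annotation or the treatment of multi-mapped reads. No count or read total was used, and intervals that need depth are not given; the depth implied by the steps between low values covers counting error only.

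Members and gene lists were chosen with earlier results of these data known. A result that bears on an item of the pathway list is not reported here, though the list's counts include it. Each comparison was fitted separately to log2(RPKM + 1) with limma 3.58.1 in R 4.3.3 (empirical Bayes with trend, two-sided), over all genes with at least 1 RPKM in as many libraries as the smaller group holds. P-values were adjusted over all tested genes by Benjamini and Hochberg, with a threshold of 0.05, and every adjusted p in the text is of this kind. Scripts were first tested on simulated data. In each comparison up to 6 called members per direction with the largest difference were named, or, with none called, the 3 with the smallest p; 21 members were always described.

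Within a class the same clone appears at each time, per the titles, so libraries of 1 clone are true pairs; the correlation of their deviations from the group means was 0.166 to 0.919, except -0.363 for SI2 between d21 and d14. SC and SI clones, and iPS cells and feeders, share only a number. Alternatives were a pseudocount of 0.1, no filter, scaling to the median gene, the replicate block, 1 fit over all 12 groups and, in turn, each library left out; leaving out a clone at every time was added after seeing the data.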

Additional observations from a re-analysis of the deposited data

Results flagged for a closer look

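Libraries far from the rest of their group were looked for among 242 sets of 4 clones, and 18 stood out, where chance marks about 1 in 20. The sets are the member mean and single members read in the same libraries. They are not independent, so the 18 cannot be weighed against that share. All values here are log2(RPKM + 1), and the other 3 clones follow each value. SI3 at d23 stood below its group with a mean over members of 2.06 (2.99 to 3.13), Isg15 at 4.28 (6.24 to 6.54), Ifit1 at 1.48 (2.77 to 3.03), Irf9 at 2.26 (3.17 to 3.20), Oasl2 at 1.65 (3.52 to 3.85), Bst2 at 5.63 (7.40 to 7.61), Gbp2 at 2.81 (3.87 to 4.03), Ddx58 at 3.12 (4.24 to 4.47) and Adar at 3.07 (3.51 to 3.56).

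The same clone stood above its group at d22 for Cxcl10, at 3.44 (2.01 to 2.13), and Ccl5, at 3.00 (1.51 to 1.66), and below it for Ddx58, at 3.65 (4.15 to 4.19). It was high for Gbp2 at d21, at 1.93 (1.12 to 1.20), and for Bst2 at d14, at 7.92 (7.25 to 7.33). Thus 14 of the 18 belonged to SI3.

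In SC, Oas1a was high in SC2 at d23, at 3.87 (2.51 to 2.71), and Isg15 in SC3 iPS cells, at 5.52 (5.26 to 5.29). Mx1, under 1 RPKM throughout, was marked in SI1 at d23, at 0.07 (0.04 to 0.04), and in SI2 at d27, at 0.01 (0.25 to 0.30).

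Eif2ak2 was lower at d22 than at d21 in every SC clone and higher in every SI clone, with mean changes of -0.22 in SC and 0.11 in SI and a difference of -0.34; this was 1 of 88 such checks, and the difference was not tested.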

How the results depend on the processing

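Numbers of members called stayed within 1.5 times the main number under a pseudocount of 0.1 and under scaling to the median gene in all 17 comparisons, although for d14 clones against feeder that scaling called Ifi35, Irf9 and Isg20 in place of Oas2 and Trim25. With no filter the number was 1 for SC against SI at d23, 2 for SC d22 against d21 and 1 for d14 clones against feeder. With 1 fit over all groups it was 2 for SC against SI at d22, 14 at d23 (2 higher and 12 lower), 2 for SC d22 against d21, 4 for SC d23 against d21, 30 for SI d21 against d14 and 8 for iPS cells against d27. With the replicate block, where clones are true pairs, it was 14 for SC d22 against d21, 4 for SC d23 against d21, 4 for SI d21 against d14 and 8 for iPS cells against d27; between classes, where clones share only a number, it was 0 at d23, and the block moved no other count by over 1.5 times. The cause was not tested in any of these cases. Of the values of single genes, 11 gained and 3 lost a call with scaling, 0 and 14 with no filter, 59 and 19 with 1 fit, 0 and 3 with the other pseudocount, 35 and 4 with the block and 236 and 216 over the left-out libraries and clones; no called one changed sign.

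With 1 library or clone left out at a time, the lowest and highest numbers were 0 and 0 for SC against SI at d14, 0 and 1 at d21, 0 and 8 at d22, 0 and 22 at d23 and 0 and 2 at d27. They were 33 and 38 for SC d21 against d14, 0 and 4 for SC d22, 0 and 3 for SC d23 and 0 and 0 for SC d27 against d21, and 0 and 16 for SI d21 against d14. They were 6 and 18 for SI d22, 8 and 35 for SI d23 and 0 and 19 for SI d27 against d21, 0 and 19 for the difference of changes, 0 and 30 for iPS cells against d27, 29 and 32 for iPS cells against feeder, and 1 and 16 for d14 clones against feeder.

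Calls over all genes moved more. For SC against SI, 0 genes at d21 became 1 with no filter and 81 with 1 fit, 0 at d22 became 3474 with 1 fit, 5021 at d23 became 2373 with the block, and 73 at d27 became 0 with no filter, 0 with the block and 143 with 1 fit. For SC d22, d23 and d27 against d21, 976, 454 and 1 genes became 4456, 1600 and 1330 with the block and 1621, 1906 and 7 with 1 fit, and 0 with no filter at d27. For SI d21 against d14, 0 became 9 with the block and 2208 with 1 fit, for SI d22 against d21 4497 became 6798 with the block, and for SI d27 against d21 0 became 2 with no filter and 1372 with 1 fit. The difference of changes had 0 genes, 4 with the other pseudocount, 1 with no filter, 2944 with the block and 1872 with 1 fit, and iPS cells against d27 had 189, 60 with no filter, 1399 with the block and 2131 with 1 fit.

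Groups of 4 clones limit what can be called, and single libraries (SI3 at d14, d21 and d23, SC2 at d22 and d23 and SC4 at d27 among them) decide several counts. Counts over tested members leave out those under 1 RPKM. With a library or clone left out, the filter can ask for fewer libraries. More members can then pass it through 1 group alone, which fixes or favours their sign. Read totals are not known, so low members such as Mx1 and Rsad2 carry an error that could not be set.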

Other observations

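Genes that interferon induces but that are not members were read from a further list of 50. At d21 against d14 in SC clones 29 of 46 tested ones were lower and 3 higher (20.6% of all genes were lower), and at d23 against d21 in SI clones 21 of 39 were higher and 5 lower (22.7% of all genes were higher). Some passed the filter through 1 group alone and were not counted apart. Among the lower ones in SC, Iigp1 and Ifi47 averaged 0.615 ± 0.215 and 0.63 ± 0.182 RPKM at d21. They reached 1 RPKM in the d14 libraries alone, so the filter fixed their sign. Irgm1, a GTPase of cell-autonomous immunity, averaged 17.0 ± 5.29 RPKM at d23 and 2.92 ± 1.98 RPKM at d21 in SI clones (log2 2.26 ± 0.35 SE, adjusted p = 0.000968). B2m, the light chain of MHC class I, averaged 195 ± 79.1 RPKM in iPS cells and 628 ± 60.3 RPKM in feeders (log2 -1.75 ± 0.26 SE, adjusted p = 0.000261).

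Ifitm1, a relative of Ifitm3, ran the other way. It averaged 59.7 ± 21.1 RPKM in iPS cells and 1.8 ± 0.207 RPKM in feeders (log2 4.36 ± 0.28 SE, adjusted p = 4.24e-06). In SC clones it averaged 13.1 ± 6.77 RPKM at d21 and 1.51 ± 0.468 RPKM at d14 (log2 2.31 ± 0.42 SE, adjusted p = 0.00257), and at d23 it was 38.4 ± 23.7 RPKM in SC and 1.75 ± 0.385 RPKM in SI (log2 3.52 ± 0.55 SE, adjusted p = 0.0221).

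Of 13 genes tied to interferon gamma, 4 of them members or pathway genes, 8 were called higher in SI clones at d22 than at d21 (19.1% of all genes tested), among them Gbp2, Gbp3, Irf1, Irgm1 and Igtp, and 10 at d23 (22.7%). The others, except Cxcl9, belong to the further list above, so their d23 calls are counted there too. The 5 too low to test at d22 were Gbp6, Gbp9, Iigp1, Ifi47 and Cxcl9, and at d23 Gbp6, Iigp1 and Cxcl9. A gene that reached 1 RPKM more often in the later libraries was favoured to rise. Gbp9 averaged 2.54 ± 1.14 RPKM at d23 and 0.685 ± 0.493 RPKM at d21, with overlap between the groups. Ifi47 averaged 1.90 ± 0.259 RPKM at d23 and 0.588 ± 0.603 RPKM at d21.

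The 4 SC clones fell into pairs for some members, a pattern seen in the values and not tested. SC3 and SC4 both lay above SC1 and SC2 at d21, d22, d27 and in iPS cells for 9 members (Irf1, Oasl2, Trim25, Parp14, Parp9, Gbp2, Gbp3, Ifi35 and Zbp1). At d23 this held for Irf1 and Oas3 alone, and 18 members lay lower in both SC3 and SC4 than in SC1 and SC2; 11 did so at d22 and 9 in iPS cells. In iPS cells Gbp2 was 5.72, 4.68, 29.1 and 28.8 RPKM in SC1 to SC4. In the same libraries Usp18 was 11.7, 14.1, 9.99 and 6.97 RPKM and Ifit1 8.17, 9.74, 6.11 and 4.51 RPKM, lower in SC3 and SC4 than in SC1 and SC2.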
